A study of Mus musculus with 37 samples.

Results

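Myoblasts were set against neurospheres of the adult brain, a pair of dividing cell populations that differ in tissue, in 7 of the 37 runs of a quantitative PCR survey of microRNAs in mouse stem and progenitor cells. All runs labelled as myoblasts (4) or as adult neurospheres (3) were taken, and none was left out for its values. The comparison itself was chosen with earlier results of these data known, and its groups have similar numbers of detected assays. The Myoblast runs came from wildtype C57/Bl6 mice and hold committed, dividing muscle progenitors taken from the muscle mass of the fore and hind limbs. The NSPC-Adult runs came from wildtype adult mice and hold multipotent neural stem and progenitor cells (NSPC), grown as primary neurospheres from 2 regions labelled SVZ and DG. Their strain is labelled C57/Bl6 for replicate 1, C57/Bl7 for replicate 2 and C57/Bl8 for replicate 3. All 7 runs are untreated. The labels give no age for the myoblasts and no growth conditions for either culture, and nothing in them ties replicates to different mice or dishes. Each p-value therefore measures the spread between these runs, which may be technical. Tubes held between 20 and 1000 cells in the study as a whole. Tissue cannot be told apart from culture method or isolation, and fewer cells of a type cannot be told apart from less RNA per cell.

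MicroRNAs (miRNAs) are short RNAs that guide Argonaute proteins to messenger RNAs, mostly by pairing of the seed, bases 2 to 8 from the 5′ end, and lower the output of those messages. Muscle progenitors are known for miR-206, miR-1 and miR-133, which are switched on by myogenic transcription factors, and miR-206 and miR-1 favour differentiation. Brain cells are known for miR-9, miR-124, miR-128 and the pair miR-132 and miR-212, and neural progenitors gain let-7 as they mature.

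The value measured is the threshold cycle (Ct), the PCR cycle at which an assay's signal appears, so that a lower Ct means more RNA and 40 means no amplification. An assay counted as detected below Ct 35. Each Myoblast run detected 131 to 139 of 459 assays and each NSPC-Adult run 139, against 61 to 143 over all 37 runs, and this number of assays limits the precision. Ct differences between pairs of runs had an SD of 0.324 to 0.439 among myoblasts and 0.546 to 0.669 among neurospheres, so no 2 runs were near-identical. Levels below are log2 values, with 1 unit per cycle, relative to the mean Ct of the 102 assays detected in all 7 runs. That mean was 27.42 to 28.21 in the Myoblast runs and 27.69 to 27.81 in the NSPC-Adult runs. Levels under -6.79, the lowest level that could be seen in every run, were set to that floor. Differences are Myoblast minus NSPC-Adult levels ± standard error (n = 4 and 3 runs), and "at least" or "or lower" marks a difference in which every run of 1 group lay at the floor. A group held at the floor shows no scatter, which makes the standard error of a bound too small. The floor also shrinks a difference, and can shrink its standard error, where only some runs of a group lay there. A stricter detection limit of Ct 32 shrinks these bounds by construction, for instance to at least 5.78 for miR-214.

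Mature sequences of some miRNAs with large differences, and of their seed or cluster partners, are given first, from RefSeq on mouse GRCm38.p6, with the seed in capitals. Of 126 miRNA names tested, 84 matched a mature sequence there. The first set holds miRNAs higher in myoblasts. miR-206 lies at chr1:20679055-20679076 (+), miR-214 at chr1:162223438-162223459 (+) and miR-31 at chr4:88910614-88910635 (-). The miRNA named miR-199a* by the panel is miR-199a-3p, whose Mir199a-2 copy lies at chr1:162217883-162217904 (+). miR-196b lies at chr6:52230129-52230150 (-), and miR-196a has copies at chr11:96265187-96265208 (+) and chr15:102973365-102973386 (+). miR-20b lies at chrX:52742159-52742181 (-), and its paralogue miR-20a, which did not rise, at chr14:115044183-115044205 (+).
miR-206: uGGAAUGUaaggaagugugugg
miR-31: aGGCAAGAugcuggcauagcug
miR-214: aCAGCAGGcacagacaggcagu
miR-199a-3p: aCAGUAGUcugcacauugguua
miR-196a: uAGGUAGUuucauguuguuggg
miR-196b: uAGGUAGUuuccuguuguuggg
miR-20b: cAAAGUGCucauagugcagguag
miR-20a: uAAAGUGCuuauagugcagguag

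The second set holds miRNAs lower in myoblasts, shown because several come as pairs with 1 seed, and miR-132, the seed partner of miR-212, which was not called. miR-218 has copies at chr5:48223966-48223986 (+) and chr11:35616840-35616860 (+). miR-212 lies at chr11:75173443-75173464 (+), next to miR-132 at chr11:75173723-75173744 (+). miR-146a lies at chr11:43374435-43374456 (-) and miR-146b at chr19:46342790-46342811 (+). miR-181b has copies at chr1:137966650-137966673 (+) and chr2:38853845-38853868 (+). miR-30c (Mir30c-1) lies at chr4:120769584-120769606 (-) and miR-30e at chr4:120772660-120772681 (-), and let-7b lies at chr15:85707325-85707346 (+) beside a copy of let-7c at chr15:85706616-85706637 (+).
miR-218: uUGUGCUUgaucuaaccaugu
miR-212: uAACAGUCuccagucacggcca
miR-132: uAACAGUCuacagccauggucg
miR-146a: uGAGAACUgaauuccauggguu
miR-146b: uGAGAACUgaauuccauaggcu
miR-181b: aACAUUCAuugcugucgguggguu
miR-30c: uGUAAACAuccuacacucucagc
miR-30e: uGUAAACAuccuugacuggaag
let-7b: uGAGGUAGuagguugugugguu
let-7c: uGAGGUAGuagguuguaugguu

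Of the 459 assays, 172 were detected in at least 1 of the 7 runs and 148 were detected in every run of at least 1 group and tested. limma with Benjamini-Hochberg adjustment called 115 of them (77.7%) at an adjusted p below 0.05. In myoblasts 53 (35.8%) were higher and 62 (41.9%) were lower, with a median difference of -0.324 over all tested assays. The groups did not overlap for 115 assays (77.7%), 113 of them called. Of the calls, 27 are bounds, 14 higher and 13 lower. With so large a share called, a count for any list is to be read against these percentages. When runs were centred on the median of the common assays in place of their mean, the median difference became 0.03 and the calls 61 higher and 49 lower, so small differences depend on the centring.

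**Figure D1:**
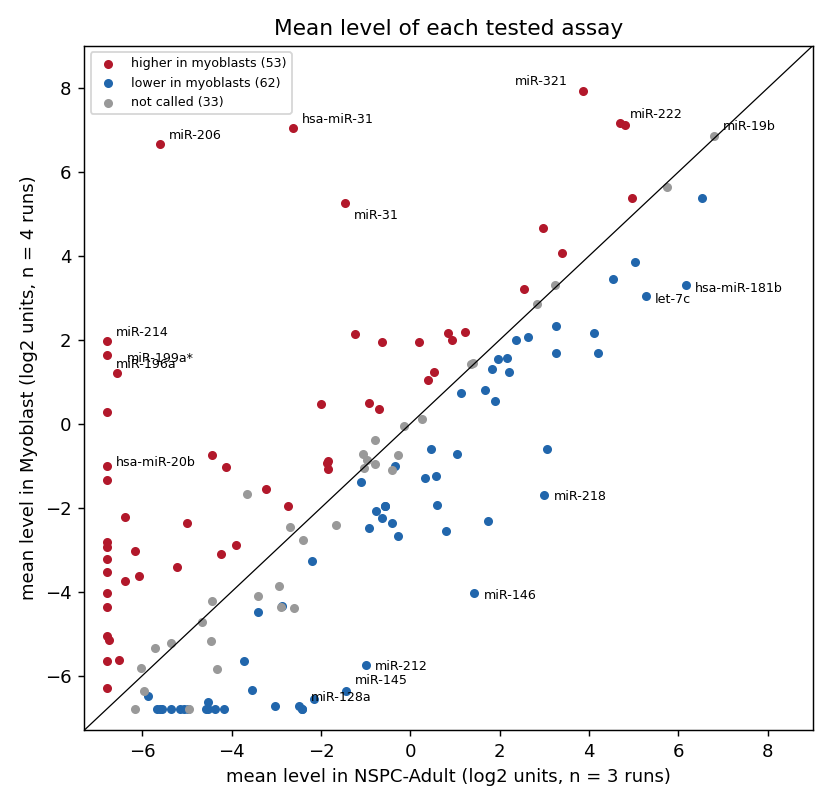
Mean level of each of the 148 tested assays (log2 units) in NSPC-Adult (horizontal axis, n = 3 runs) and Myoblast (vertical axis, n = 4 runs), with the line of equal levels; colours give the limma call. miR-206, both miR-31 assays, miR-214, miR-199a* and miR-196a lie far above the line. Among the labelled assays miR-146, miR-145, miR-212, miR-218 and miR-128a lie furthest below it. Points along the left and lower edges sit at the floor of -6.79.

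The muscle miRNA miR-206 had the largest difference of all tested assays. Its Ct was 20.7, 20.8, 21.1 and 22 in the Myoblast runs and 34.3, 33.4 and 32.4 in the NSPC-Adult runs. The neurospheres thus lay close to the detection limit in all runs, and the groups were separated by more than 10 cycles. The difference was 12.26 ± 0.47 (limma adjusted p = 6.61e-07). At a mean level of 6.66, miR-206 was among the strongest signals of the myoblasts.

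miR-1, which shares its seed with miR-206 and acts in differentiating and contracting muscle, had a Ct of 29.4, 30.0, 30.3 and 32.8 in myoblasts and 40 in all neurosphere runs. It was at least 3.98 ± 0.67 higher (limma adjusted p = 0.0013), and no other group of the series detected it. miR-133a, processed from the same transcripts as miR-1, was seen at 31, 31 and 31.8 in Myoblast replicates 1 to 3 but at 38.6 in replicate 4. The neurospheres gave 40, 38.7 and 39.7 for miR-133a. Because replicate 4 missed it, miR-133a was not tested. Myoblast replicate 4 had the highest Ct of the group for miR-206, miR-1 and miR-133a alike, and also the highest mean Ct over the common assays. Of 5 measured skeletal muscle assays 3 were detected, 2 were tested and both were higher, while miR-208, the miRNA of heart myosin genes, and hsa-miR-499 were not detected. The hsa-miR-499 assay was at Ct 40 in every run of the series, so whether it works cannot be told.

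**Figure D2:**
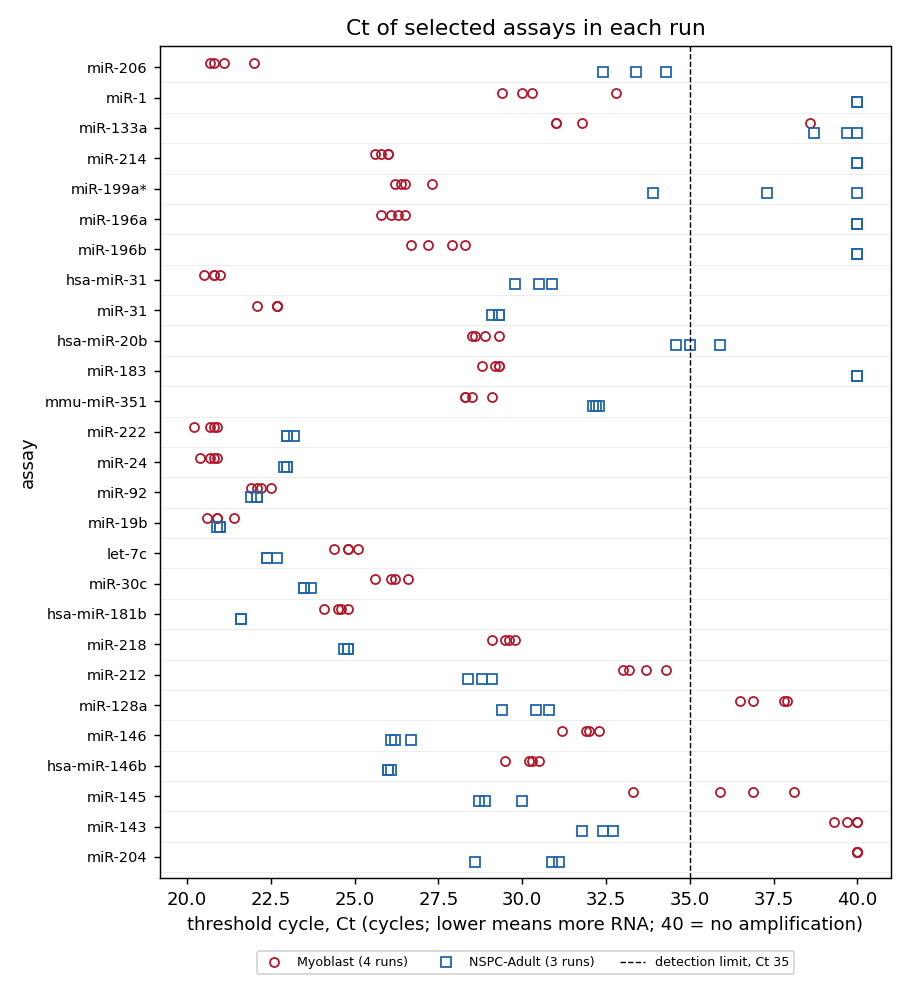
Ct of 27 assays (horizontal axis, in cycles) in each Myoblast run (circles) and each NSPC-Adult run (squares), with the detection limit at Ct 35 as a dashed line. The groups lie more than 10 cycles apart for miR-206, overlap for miR-92 and miR-19b, and change order further down, where the neurospheres have the lower Ct.

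Mesenchymal miRNAs split by cluster. miR-214 and miR-199a*, made from the antisense transcript of the Dnm3 gene and known in skeletal muscle and fibroblasts, were higher in myoblasts. miR-214 had a Ct of 26, 25.8, 25.6 and 26 in myoblasts and 40 in all 3 neurosphere runs, a difference of at least 8.75 ± 0.13 (limma adjusted p = 7.89e-09). miR-199a* had 26.2, 26.5, 26.4 and 27.3 against 40, 37.3 and 33.9, a difference of 7.77 ± 0.24 with 2 of the 3 neurosphere runs at the floor. Their hairpins lie 5445 bases apart on chromosome 1.

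miR-143 and miR-145, a pair made from 1 transcript and known from smooth muscle and fibroblasts, ran the other way. miR-145 had a Ct of 30.0, 28.9 and 28.7 in neurospheres and 36.9, 38.1, 35.9 and 33.3 in myoblasts, so that only Myoblast replicate 4 detected it, and differed by -4.93 ± 0.53. miR-143 had 32.7, 32.4 and 31.8 in neurospheres and 39.3 or above in myoblasts, a difference of -2.25 ± 0.21 or lower. Of the 8 mesenchymal assays measured 4 were tested, 2 higher and 2 lower. The neurospheres therefore held more of 1 pair of these miRNAs and the myoblasts more of the other.

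miR-196a and miR-196b, encoded within the Hox gene clusters and known to repress Hox messages, were seen in myoblasts alone. miR-196a had a Ct of 26.3, 26.1, 25.8 and 26.5 in myoblasts, and miR-196b 27.9, 27.2, 26.7 and 28.3, against 40 in every neurosphere run for both. The differences were at least 8.43 ± 0.10 and at least 7.08 ± 0.24. Their sequences differ at 1 position, A12C counted from the 5′ end of miR-196a, outside the seed, so the assays may not separate them fully. miR-10a and miR-10b, the other miRNAs of the Hox clusters, were at Ct 40 in all 7 runs. In the rest of the series miR-196a was detected in satellite cells (29 to 33) and in several blood groups, with the lowest Ct, 22.8, in MLL-LSC, the Kit+ leukaemia stem cells.

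miR-31, which in satellite cells is known to hold back the messenger RNA of Myf5, was measured by a pair of assays, and both were higher in myoblasts. The assay hsa-miR-31 gave 20.8, 20.8, 20.5 and 21 in myoblasts and 29.8, 30.5 and 30.9 in neurospheres, a difference of 9.67 ± 0.26 (limma adjusted p = 1.16e-07). The assay miR-31 gave 22.7, 22.7, 22.1 and 22.7 against 29.1, 29.3 and 29.3, a difference of 6.73 ± 0.15. The assays differed by 2.94 in the size of the difference but not in its direction. Over the series, the group nearest to the myoblasts for hsa-miR-31 was KSL-ETO, blood progenitors of AML-ETO9a transgenic mice, at Ct 22.6 to 22.7.

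miR-183, known from sensory cells, had a Ct of 29.3, 29.2, 28.8 and 29.3 in myoblasts and 40 in all neurosphere runs, a difference of at least 5.45 ± 0.12. KSL-ETO, at 28.6 to 28.7, was the only other group of the series to detect it. Other members of its cluster did not follow. Both miR-96 assays were at 40 in all 7 runs, and miR-182*, singled out after its values were seen, was detected in neurospheres alone (32.5, 33.9 and 33.7 against 38.7 or above), a difference of -1.19 ± 0.34 or lower. It was -0.77 without NSPC-Adult replicate 1, and was not called when centred on the median.

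hsa-miR-20b, of the X-linked miR-106a/miR-363 cluster, had 28.9, 28.6, 28.5 and 29.3 in myoblasts and 35, 34.6 and 35.9 in neurospheres, and was at least 5.78 ± 0.12 higher. Its near twin miR-20, the panel's name for miR-20a of the miR-17/miR-92 cluster, differs from it at 2 positions, U1C and U10C counted from the 5′ end of miR-20a, and differed by -1.15 ± 0.15, and by -1.79 with quantile normalization. The groups were apart for both, in opposite directions. mmu-miR-351, of the X-linked miR-322 and miR-503 cluster, had 28.3, 28.5, 28.3 and 29.1 against 32.1, 32.3 and 32.2 and was 3.70 ± 0.14 higher. It was the 1 tested assay of 5 in that cluster, since miR-322 was detected in Myoblast replicate 1 alone (34.6) and miR-424 and miR-503 in no run. The miR-503 assay was at Ct 40 in every run of the series, so whether it works cannot be told.

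Several miRNAs present in both cell types were stronger in myoblasts. miR-222 had 20.7, 20.9, 20.2 and 20.8 against 23, 23 and 23.2, a difference of 2.46 ± 0.14, and mmu-miR-221 was 1.70 ± 0.14 higher. This pair, encoded 505 bases apart on the X chromosome, is known to target the cell cycle inhibitor p27 and to fall when myoblasts differentiate. miR-24 had 20.7, 20.8, 20.4 and 20.9 against 22.9, 23 and 23, a difference of 2.31 ± 0.12. With quantile normalization miR-222 was 1.58 and miR-24 1.53 higher. Of 5 tested assays of the miR-23, miR-27 and miR-24 clusters 4 were higher and 1 was not called, with a median of 2.31. miR-23bN was 3.37 ± 0.23 higher and miR-27bN 2.57 ± 0.15 higher, while miR-27a differed by 0.10 ± 0.12 and was called higher with quantile normalization or median centring (limma adjusted p = 0.041 and 0.0194). miR-27b by its other assay was 0.93 ± 0.30 higher, a call lost when any of 4 runs was left out (limma adjusted p up to 0.0761), with 0.61 without NSPC-Adult replicate 2. miR-27b, known to target Pax3, lies with miR-23b and miR-24-1 in 1 cluster, and miR-27a lies in another.

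All 4 tested miR-29 assays, which report on a family known to repress collagens and other matrix genes, were higher, with a median of 1.09. They ranged from miR-29a at 2.46 ± 0.12 and miR-29c at 1.05 ± 0.11 to miR-29bN at 0.42 ± 0.12, which turned to -0.36 with quantile normalization and was not called with no scaling (limma adjusted p = 0.134). miR-152 was 4.19 ± 0.24 higher by 1 assay with NSPC-Adult replicate 1 undetected, and 0.95 ± 0.29 by the other, miR-152N, which was not called without NSPC-Adult replicate 3 (0.68, limma adjusted p = 0.0674) or with no scaling (limma adjusted p = 0.0584). miR-193 was 3.10 ± 0.20 higher (28.9, 28.8, 28.5 and 29.2 against 31.8, 31.5 and 32.4). miR-378 was 3.12 ± 0.60 higher, with 2 of 3 neurosphere runs undetected, and miR-422b, an old name for the other arm of the same hairpin and singled out after its values were seen, was at least 3.58 ± 0.19 higher. The assay miR-321 gave the lowest Ct of the myoblasts, 19.8, 19.9, 19.8 and 20.0 against 23.8, 24 and 23.9, and was 4.07 ± 0.17 higher. The name miR-321 has since been withdrawn from the miRNA registry, and no sequence is given for it here.

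Among the miRNAs lower in myoblasts was miR-218, made from introns of the Slit2 and Slit3 axon guidance genes. It had a Ct of 24.7, 24.8 and 24.8 in neurospheres and 29.6, 29.5, 29.1 and 29.8 in myoblasts, so it was present in both and separated them by more than 4 cycles. The difference was -4.69 ± 0.11 (limma adjusted p = 4.15e-08). In the freshly isolated newborn neural cells of the series, NSPC-P0, it lay at 25.1 to 25.5.

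miR-212, induced by the transcription factor CREB in neurons, had 28.8, 28.4 and 29.1 in neurospheres and 33.7, 34.3, 33 and 33.2 in myoblasts, a difference of -4.74 ± 0.35. Its cluster mate miR-132 had 30.1, 29.7 and 32.2 against 32.9, 32.6, 31.6 and 31.6. Here NSPC-Adult replicate 3 lay among the myoblasts, and the difference of -1.46 ± 0.67 was not called (limma adjusted p = 0.0841). Without that run it was -2.25 and called (limma adjusted p = 0.00852). miR-128a, enriched in neurons, had 30.8, 30.4 and 29.4 in neurospheres and was not detected in myoblasts (36.5 or above), a difference of -4.35 ± 0.32 or lower.

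Assays of the miRNAs that define brain tissue most were nevertheless undetected in the neurospheres. How well these assays work was not tested, so the values do not show that the miRNAs were absent. mmu-miR-9 had 35, 36.1 and 40, mmu-miR-124a 39.9, 40 and 40, and mmu-miR-137 40, 38.8 and 39.1. Of 12 neural assays measured, 3 were detected and tested: 2 were lower in myoblasts and 1 was not called, with a median of -4.35. Among the miRNAs known from brain, miR-218, miR-128a and miR-212 were thus detected in all neurosphere runs, and miR-9 and miR-124 in none.

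The largest fall was that of miR-146, the panel's name for miR-146a, which is induced by NF-κB and dampens its signalling. It had 26.1, 26.7 and 26.2 in neurospheres and 32, 31.2, 32.3 and 31.9 in myoblasts, a difference of -5.47 ± 0.38 (limma adjusted p = 1.37e-05). hsa-miR-146b, encoded on another chromosome and different at 2 positions, G18A and U21C from the 5′ end of miR-146a, had 26, 26 and 26.1 against 30.5, 30.2, 29.5 and 30.3. It differed by -4.05 ± 0.17, so both assays had the same direction, though they may not separate these miRNAs fully.

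miR-181b, known from lymphocytes and brain, was lower by both assays, with hsa-miR-181b at 21.6 in all 3 neurosphere runs and 24.5, 24.6, 24.1 and 24.8 in myoblasts. The differences were -2.85 ± 0.10 for hsa-miR-181b and -3.68 ± 0.21 for miR-181bN, and hsa-miR-181d was at -1.80 ± 0.13. miR-181c was detected in NSPC-Adult replicates 1 and 2 alone (34.8 and 34.3) and miR-181a in no run. All 3 tested assays of the family were lower, with a median of -2.85.

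Further falls were large. miR-328 had 27.1, 26.9 and 26.9 in neurospheres and 30.4, 30.6, 29.8 and 30.7 in myoblasts, a difference of -3.36 ± 0.13. miR-340 had 30.5, 30.8 and 31.1, and was detected in Myoblast replicate 2 alone (34.4), a difference of -3.70 ± 0.16. Of 3 tested assays of the miR-130 and miR-301 family 2 were lower and 1, miR-130a, was higher, with a median of -0.57. miR-301 differed by -2.81 ± 0.33, and by -0.22 with a limit of Ct 32, where it was not called (limma adjusted p = 0.0973). Among falls against the floor, miR-135b differed by -2.62 ± 0.70 or lower and miR-184 by -2.42 ± 0.33 or lower.

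let-7, the family that restrains growth and in neural stem cells represses the nuclear receptor Tlx and cyclin D1, was lower in myoblasts for 5 of 8 tested assays and not called for 3. The median was -1.86 against -0.324 over all tested assays. let-7c had 22.7, 22.4 and 22.4 in neurospheres and 24.8, 24.8, 24.4 and 25.1 in myoblasts, a difference of -2.23 ± 0.11. let-7g differed by -2.40 ± 0.15, let-7d by -1.96 ± 0.34 and let-7b by -1.94 ± 0.12. let-7b and let-7c differ in sequence at 1 position, G17A from the 5′ end of let-7b, and lie 622 bases apart on chromosome 15. Members that were not called also had differences below 0, with let-7i at -0.71 ± 0.45, which was called without NSPC-Adult replicate 1 (-1.20, limma adjusted p = 0.0322). The fifth of the calls, mmu-let-7f at -1.06 ± 0.32, was lost when any of 3 runs was left out (limma adjusted p up to 0.0536) and with median centring (limma adjusted p = 0.102).

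The miR-30 family was measured on both arms. Its 5′ arm assays, which share 1 seed, were lower in 4 of 5 cases. miR-30c had 23.7, 23.5 and 23.5 in neurospheres and 26.2, 26.1, 25.6 and 26.6 in myoblasts, a difference of -2.51 ± 0.11, and miR-30e was at -2.54 ± 0.20. miR-30a-5p was at -1.75 ± 0.16 and its second assay miR-30a-5pN at -1.32 ± 0.31. miR-30d, whose sequence is not given here, differed by 0.15 ± 0.49. The opposite arms of the same hairpins, miR-30a-3p at -0.15 ± 0.10 and miR-30e-3p at -0.03 ± 0.13, were not called, though miR-30a-3p was with quantile normalization (-0.32, limma adjusted p = 0.0436). The difference between the arms was not tested.

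All 4 miR-26 assays were lower. miR-26a was at -1.10 ± 0.11 and miR-26bN at -0.52 ± 0.11, while miR-26b at -0.40 ± 0.11 and miR-26aN at -0.29 ± 0.10 were the smallest. With no scaling the calls of miR-26aN, miR-26b and miR-26bN ended (limma adjusted p = 0.269, 0.143 and 0.0674). With runs centred on the median they ended too, and miR-26aN turned to 0.07. Leaving out any of 4 runs also ended the call of miR-26aN (limma adjusted p up to 0.125). In the miR-99, miR-100 and miR-125 families 3 of 6 assays were higher, 2 were lower and 1 was not called. miR-125a was 0.66 ± 0.09 higher and miR-125b 0.64 ± 0.14 higher, the latter not with no scaling (limma adjusted p = 0.084), while miR-100 was at -0.96 ± 0.12. miR-99b differed by 0.04 ± 0.14 and turned to -0.26 with quantile normalization (limma adjusted p = 0.0412), and was 0.39 when centred on the median (limma adjusted p = 0.041).

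The growth-linked miR-17/miR-92 cluster, transcribed under Myc and E2F, gave small differences between the dividing populations, whose calls depended on the scaling. Of 7 tested assays none was higher, 6 were not called and miR-20 was lower, with a median of 0.03. With quantile normalization 3 were lower, and with median centring 3 were higher. miR-19b, among the strongest signals of both, had 20.9, 20.9, 20.6 and 21.4 in myoblasts and 21, 21 and 20.9 in neurospheres. Its difference was 0.06, with a 95% interval of -0.17 to 0.30. miR-92 differed by -0.10, with a 95% interval of -0.33 to 0.14, and miR-18 by -0.47 ± 0.22. These intervals hold for the scaling used alone. With quantile normalization miR-19b turned to -1.36 (limma adjusted p = 1.73e-05) and miR-92 was at -1.14 (limma adjusted p = 4.57e-06). miR-19b was at 0.42 when centred on the median (limma adjusted p = 0.0198), and miR-92N at 0.38 (limma adjusted p = 0.0267). miR-18 was called without NSPC-Adult replicate 1 (-0.72, limma adjusted p = 0.0176).

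The paralogous miR-106b/miR-25 and miR-106a/miR-363 clusters were not uniform: 3 of 7 assays were higher and 4 lower. miR-106b was at -0.85 ± 0.12 and miR-25 at -1.08 ± 0.27, both from the cluster within the Mcm7 gene. The third miRNA of that cluster, miR-93, was at -1.17 ± 0.10 by 1 assay (-1.96 with quantile normalization) and 0.95 ± 0.16 by the other.

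**Figure D3:**
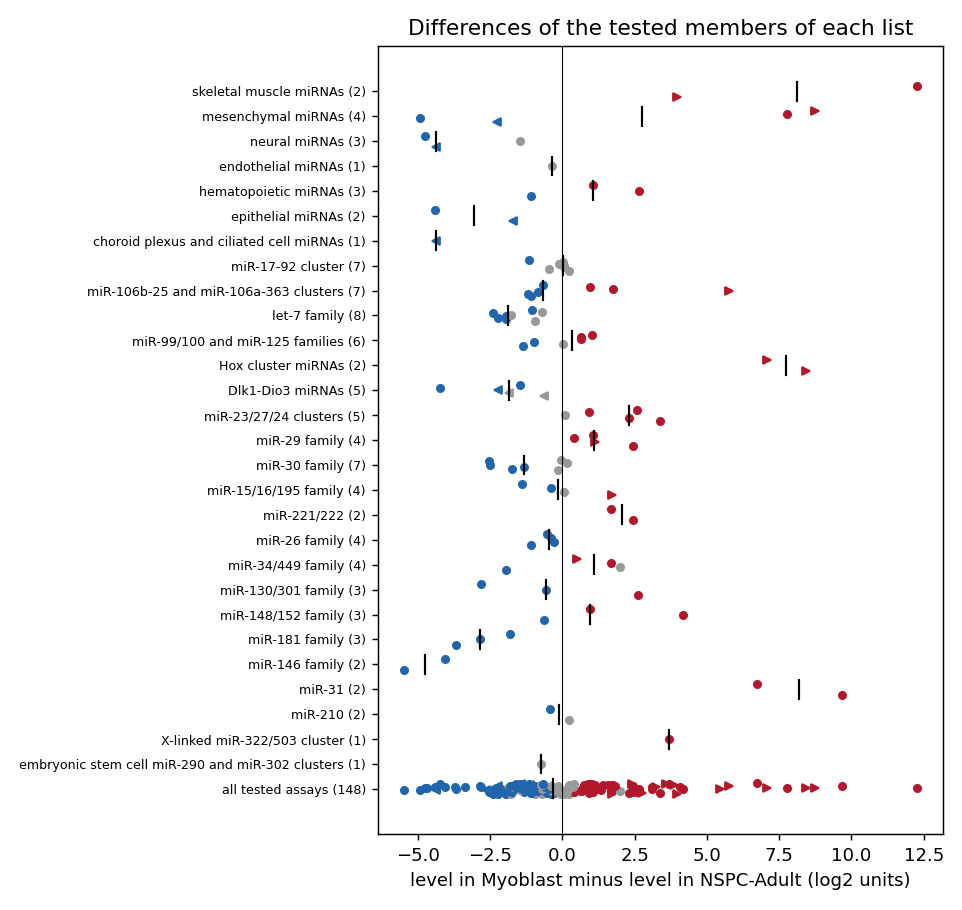
Differences of all tested members of each list (points; log2 units, Myoblast minus NSPC-Adult), coloured red where higher, blue where lower and grey where not called; triangles are bounds and the black bar is the list's median. The bottom line holds all 148 tested assays, whose median is -0.324; the members of the miR-17/miR-92 cluster lie near 0 apart from miR-20 with the scaling used (miR-19b turned to -1.36 with quantile normalization), while mesenchymal members lie at both ends.

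Imprinted miRNAs of the Dlk1-Dio3 locus were scarce in both populations. Of 39 assays 7 were detected and 5 tested, 3 of them lower and 2 not called, and all 5 lower with no scaling. mmu-miR-431 had 31.2, 30.6 and 29 in neurospheres and 34.8, 34.7, 33.9 and 36.5 in myoblasts, a difference of -4.21 ± 0.49. All Myoblast runs but replicate 3 lay at the floor for mmu-miR-431. hsa-miR-431 was at -2.22 ± 0.12 or lower. miR-381 was at -1.47 ± 0.25, and miR-127 at -0.62 ± 0.26 or lower was not called, but was without Myoblast replicate 4 (-0.96, limma adjusted p = 0.0278) or NSPC-Adult replicate 1 (-0.97, limma adjusted p = 0.00186), and with no scaling (-1.07).

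Smaller families gave mixed directions. In the miR-15, miR-16 and miR-195 family, known to repress cyclins, miR-15a was at least 1.73 ± 0.51 higher, miR-16 was at -0.38 ± 0.11, miR-195 at -1.40 ± 0.11 and miR-15b at 0.07 ± 0.30. The calls of miR-15a and miR-16 ended without NSPC-Adult replicates 3 and 2 respectively (limma adjusted p = 0.0501 and 0.0535), and that of miR-16 also with no scaling, quantile normalization or median centring (limma adjusted p = 0.132, 0.116 and 0.865). The p53 target miR-34c was 1.67 ± 0.16 higher and its second assay miR-34cN at least 0.50 ± 0.10 higher, or 0.92 without Myoblast replicate 4. miR-148a, which shares its seed with miR-152, was at -0.63 ± 0.22, a call that ended when any of 4 runs was left out (limma adjusted p up to 0.115). The hypoxia miRNA miR-210 differed by 0.24 ± 0.20, which was called only when centred on the median (0.59, limma adjusted p = 0.0161), and by -0.43 ± 0.13 with its second assay miR-210N, which was called, though not when any of 3 runs was left out (limma adjusted p up to 0.0624).

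Markers of other cell types were read beside these results. The endothelial miR-126 was at similar Ct in both, 31, 30.1, 30.0 and 31.2 in myoblasts and 30.9, 29.5 and 30.1 in neurospheres, and differed by -0.36 ± 0.35. miR-126* was not detected. Of 7 blood assays measured, 4 were detected in at least 1 run and 3 were tested. Both miR-142 arms were at 40 in all 7 runs. Of the tested assays, miR-150 was at -1.09 ± 0.22, miR-155 2.66 ± 0.24 higher and mmu-miR-155 1.06 ± 0.29 higher. With a limit of Ct 32 miR-155 was at 0.13 and miR-150 at -0.34, and neither was called (limma adjusted p = 0.268 and 0.0756).

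Epithelial and choroid plexus markers were lower in myoblasts where they were detected. miR-375 had 31.4, 29.5 and 28.9 in neurospheres and was detected in Myoblast replicates 2 and 3 alone (33.9 and 34), a difference of -4.39 ± 0.57. miR-203 was at -1.72 ± 0.38 or lower. miR-141, miR-200a and miR-200b, which define epithelium, were at 40 in all 7 runs, and 2 of 13 epithelial assays were detected. miR-204, abundant in choroid plexus and retinal pigment epithelium, had 28.6, 30.9 and 31.1 in neurospheres and 40 in all myoblast runs, a difference of -4.35 ± 0.60 or lower that was not called with a limit of Ct 32 (limma adjusted p = 0.0821). miR-211 and hsa-miR-449 were not detected, and both miR-211 assays were at Ct 40 in every run of the series, so whether they work cannot be told. The part of such cells in the differences of the neural and mesenchymal lists was not tested.

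Assays designed for the human miR-515 cluster, which is known from primates alone, gave signal in both mouse populations. hsa-miR-520e had a Ct of 25.1, 25.6, 24.8 and 26.4 in myoblasts and 24.4, 24.4 and 24.7 in neurospheres. hsa-miR-522 had 25.9, 26, 26 and 26.6 against 24.8, 24.3 and 24.4. Both were called lower, at -0.93 ± 0.23 and -1.58 ± 0.17, and both were singled out after their values were seen. hsa-miR-520e was not called when centred on the median (limma adjusted p = 0.069). The source of this signal was not tested.

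For 22 miRNAs a pair of assays was tested, which shows how far a call depends on the assay. Both assays were called in the same direction for 11, in opposite directions for 4 and in 1 assay alone for 6, and for miR-92 neither was called. The signs were equal for 14. The opposite pairs were miR-106a (mmu-miR-106a 1.74 ± 0.14, miR-106a -0.68 ± 0.23), miR-130a (2.63 ± 0.67, miR-130aN -0.57 ± 0.11), miR-93 (-1.17, mmu-miR-93 0.95) and miR-99a (-1.36 ± 0.14, mmu-miR-99a 1.01 ± 0.23). No direction is given for these 4 miRNAs. The call of the assay miR-106a ended without Myoblast replicate 4 or NSPC-Adult replicate 2 (limma adjusted p = 0.0613 and 0.0949), and also with no scaling, quantile normalization or median centring (limma adjusted p = 0.0838, 0.0617 and 0.184). miR-130a was at 1.70 without NSPC-Adult replicate 3. The call of miR-130aN ended with median centring (limma adjusted p = 0.107) and that of mmu-miR-99a with quantile normalization (limma adjusted p = 0.0755). Beyond them, miR-34a was at -1.93 ± 0.25, not called with a limit of Ct 32, while miR-34aN stood at 2.00 ± 1.14, not called, with 1 neurosphere run at 34.5 and the others at 30.0 and 29.8. Without that run, NSPC-Adult replicate 2, miR-34aN was at 0.43 and called (limma adjusted p = 0.0264).

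**Figure D4:**
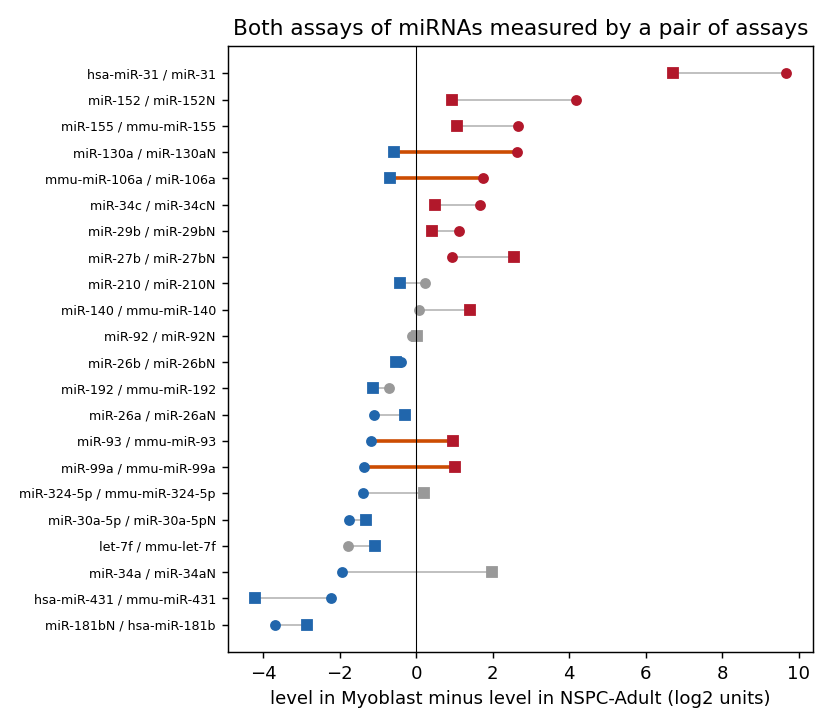
Differences (log2 units, Myoblast minus NSPC-Adult) of both assays of 22 miRNAs: the circle is the first assay named, the square the second, red higher, blue lower and grey not called. Thick orange lines join the 4 pairs called in opposite directions; both miR-31 assays lie at the right end and both miR-181b assays at the left.

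Members of a seed group were compared next, since they can pair with the same sites. Of 19 seeds shared by at least 2 tested miRNAs, 12 had calls in 1 direction, 5 in both and 2 had none. A seed with only 1 called assay counts among the 12, as for miR-25 beside miR-92 and miR-212 beside miR-132. Among the 5 are the seeds of miR-93 and miR-106a, of miR-99a and of miR-130a, miRNAs whose own assays were called in opposite directions. Whether seed members share a direction more often than other assays was not tested. The let-7 seed GAGGUAG and the miR-30 seed GUAAACA had falls alone, and the miR-29 seed AGCACCA rises alone. Members that differ at 1 position, such as let-7b and let-7c or miR-29a and miR-29c, may not be fully separated by their assays. The same holds for miR-30a-5p and miR-30e, and for miR-181b and miR-181d. The seed AAAGUGC, shared by miR-17-5p, miR-20a, miR-20b, miR-93, miR-106a and miR-106b, had 3 assays higher, 4 lower and 1 not called. The seed CCCUGAG joined miR-125a, miR-125b and miR-351, all 3 higher. By position, 40 pairs of tested miRNAs lay within 10 kb on 1 strand. In 9 of these both were called in the same direction and in none in opposite directions, and in the other 31 at least 1 was not called or its assays disagreed. A miRNA with disagreeing assays could not count as opposite, such as miR-106a (1.74 and -0.68) beside miR-20b (5.78). Over all tested assays 35.8% were called higher and 41.9% lower, and many pairs share a member. Whether neighbours share a direction more often than other pairs was not tested. Several such pairs also share a seed.

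The same tissues were sampled without culture in the series, as quiescent satellite cells sorted from wildtype tibialis anterior muscle (MuSC) and neural cells isolated from wildtype mice on the day of birth (NSPC-P0). These runs share none with the comparison above. Ct differences had an SD of 0.156 between MuSC runs 1 and 2 and of 0.211 between runs 3 and 4, against 1.17 or more across these pairs. Each pair was averaged, which left 2 MuSC samples against 3 NSPC-P0 runs. MuSC runs 1 to 4 detected 90, 90, 68 and 65 assays, and NSPC-P0 runs 1 to 3 detected 130, 123 and 119. In MuSC minus NSPC-P0, limma called 73 of 120 tested assays (60.8%), 19 higher (15.8%) and 54 lower (45.0%). How far the gap in detected assays bears on these calls was not tested. Of the 32 assays higher in myoblasts and tested in both, 11 were also higher in the fresh muscle cells and 10 were lower. Of the 50 lower in myoblasts, 24 were also lower and 5 were higher. Over the 108 assays tested in both, 61.1% had the same sign. Without MuSC runs 3 and 4 the shared rises were 19, without NSPC-P0 replicate 2 they were 7, and without NSPC-P0 replicates 1 and 3 the shared falls were 15 and 13. Pearson's r was 0.441 and Spearman's rho 0.301 across assays, which are not independent replicates.

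Several of the leading miRNAs had the same direction in the fresh cells, among them miR-206. It had a Ct of 28.75 and 28.95 in MuSC and 35.5, 35.3 and 35.9 in NSPC-P0, at least 6 ± 0.19 higher. miR-199a* was at least 4.87 ± 0.34 higher and miR-196a at least 4.17 ± 0.92. miR-218 was at -6.62 ± 0.77, with 2 of 4 MuSC runs detected (Ct 32.1 to 40), and miR-146 at -3.74 ± 0.26. miR-24 was 2.92 ± 0.24 higher and hsa-miR-181b at -1.77 ± 0.21. miR-214 was not tested there, with 31.6 and 35.15 in MuSC and 38.3 or above in NSPC-P0. miR-31 did not follow: neither MuSC sample detected it (39.1 and 40), and its difference was -0.40 ± 0.35 or lower, not called.

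Other assays were called in opposite directions. miR-222 was 2.46 higher in myoblasts but at -1.09 ± 0.23 in MuSC, and miR-125b 0.64 higher but at -2.83 ± 0.27. miR-30e was at -2.54 in myoblasts and 1.30 ± 0.20 higher in MuSC, miR-195 at -1.40 and 2.49 ± 0.34 higher, and miR-381 at -1.47 and 3.83 ± 0.51 higher. miR-126 was not detected in MuSC, whose sort removed cells with the endothelial antigen CD31, and lay at 23.1 to 23.4 in NSPC-P0. Age, quiescence and isolation differ along with tissue in the fresh cells, and their parts cannot be told apart.

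**Figure D5:**
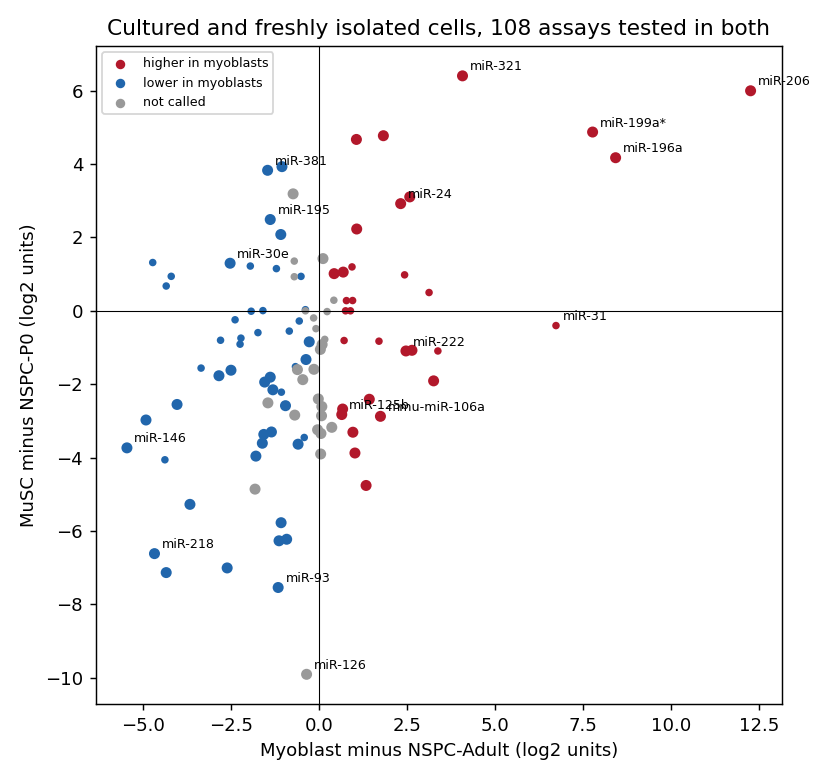
Difference between muscle and neural cells (log2 units) in culture (horizontal axis, Myoblast minus NSPC-Adult) and freshly isolated (vertical axis, MuSC minus NSPC-P0) for the 108 assays tested in both; colours give the call in culture and large points were called in the fresh cells. miR-206, miR-199a* and miR-196a lie at the upper right and miR-218 at the lower left, while miR-222, miR-125b and mmu-miR-106a lie at the lower right.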

How the data were processed

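Per the labels' protocols, defined numbers of cells were lysed and quantified by multiplex reverse transcription and TaqMan PCR. The deposited values are Ct values, 1 per assay and run, given by the authors to 1 decimal. The software, its threshold and any normalization are not stated in the labels or files, and the panel held no control small RNA. The study's text states 425 mature miRNAs, and each run holds 459 assays with 457 distinct names.

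Ct was turned into levels as described above and compared with limma 3.58.1 (lmFit and eBayes, two-sided, Benjamini-Hochberg over all tested assays at 0.05) in R 4.3.3; tables and figures were made in Python 3.11.15. The assays named are the 12 strongest rises and 12 strongest falls with groups apart and above the floor, the 6 largest of each among bounds, miR-206, miR-214 and miR-218, up to 4 members of each of 28 lists (all of lists with 6 or fewer assays), and second assays of these. Further members of families, opposite arms and neighbours were named after their values were seen. The comparison, the lists and the markers were chosen with earlier results of these data known, so they are a description. The method was tested on simulated data. Alternatives were detection limits of Ct 32 and 38, no scaling, quantile normalization, median centring, no floor, all assays or only commonly detected assays, trended and robust limma, the replicate number as a block and each run left out. The labels do not say whether equal replicate numbers pair the runs. Residuals of runs with equal numbers correlated at -0.104, 0.252 and 0.0164, and those of runs with unequal numbers at -0.286 to 0.207. With so few pairs these values cannot show whether the runs are paired.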

Additional observations from a re-analysis of the deposited data

Results flagged for a closer look

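In some assays 1 of the 4 Myoblast runs stood apart from the other 3, with a gap to its nearest neighbour that took more of the group's range of levels than Dixon's critical value for 4 samples. For normally distributed values above the floor chance alone gives about 1 such group in 20. Here 10 of 98 examined assays had one, 6 of them in Myoblast replicate 4. This count cannot be set against that rate, since the floor fixes some gaps and the assays of a run share a centring. These 6 were let-7d (gap 0.941 of the range), miR-100 (0.889), miR-145 (1.0), miR-29bN (0.891), miR-93 (0.837) and miR-99a (0.842). For miR-145 the other 3 runs lay at the floor, so the gap is the whole range. The same holds for miR-340 (1.0, Myoblast replicate 2) and mmu-miR-431 (1.0, Myoblast replicate 3). hsa-miR-20b had a gap of 0.928 in Myoblast replicate 2 and miR-29a one of 0.834 in Myoblast replicate 3.

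In 11 assays every muscle sample lay on 1 side of the neural samples in culture and on the other side in the freshly isolated cells. The difference between the comparisons was not itself tested. MuSC minus NSPC-P0 was -2.68 for miR-125a, -2.83 for miR-125b, -1.08 or lower for miR-130a, -1.09 for miR-222, -2.88 or lower for mmu-miR-106a, -3.31 or lower for mmu-miR-93 and -3.88 or lower for mmu-miR-99a, all of which were higher in myoblasts. Other assays of some of these miRNAs did not change direction: miR-93 was at -7.54 or lower and miR-99a at -3.30, both lower in myoblasts too, so no direction is given for these miRNAs. Second assays of the other miRNAs named in opposite pairs, miR-106a and miR-130aN, were not called in the fresh cells. It was 2.49 for miR-195, 2.08 for miR-26a, 1.30 for miR-30e and 3.83 for miR-381, all of which were lower in myoblasts, while miR-26aN was at -0.84, lower in both.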

How the results depend on the processing

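Over the alternatives, the calls in the culture comparison numbered 75 (33 higher) with assays detected in all 7 runs alone, since 102 were then tested, and 86 to 126 under the other settings. Centring on the median moved the median difference to 0.0292 and miR-26aN to 0.0667; quantile normalization moved miR-29bN to -0.3595, miR-99b to -0.2607 and miR-19b to -1.3589. The causes were not tested. Leaving out each run gave 111 to 116 calls, 49 to 54 higher and 58 to 65 lower, with a median difference of -0.3569 to -0.1573, and 103 of 115 calls held in all 7 such fits. With the replicate number as a replicate block, 109 assays were called (49 higher, 60 lower, median -0.2536), 106 of them shared with the main calls. The labels do not say whether equal numbers pair these runs. In the fresh cells, no scaling gave 12 assays higher, 7 of them shared with the culture comparison. Leaving out each sample there gave 54 to 88 calls, 15 to 36 higher and 37 to 60 lower, with 7 to 19 shared rises, 13 to 29 shared falls and 11 to 19 opposite calls; where a lone MuSC sample remained, its spread was taken to equal that of the NSPC-P0 runs.

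Ct near 35 limits what can be seen: assays at the floor give bounds, and low differences under about 1 cycle depend on the scaling. Quantile normalization moved some strong signals, among them miR-19b and miR-92, by more than 1 cycle.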
